A study of Mus musculus with 10 samples.

Results

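Integrins are the cell-surface receptors by which endothelial cells hold on to the matrix beneath them, and fibronectin is one of the main proteins they hold. The genes described here were chosen by name: Fn1, which encodes fibronectin, and the integrin alpha chain genes Itga1, Itga2, Itga3, Itga5, Itga6 and Itgav with the beta chain genes Itgb1, Itgb3 and Itgb5. All 10 were found among the 27024 named rows of the table and all 10 passed the filter on low values, with 11062 genes, so that every one of them was tested. The rule used no measured value, although earlier results of these data were known when the genes were chosen.

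RNA was measured in 10 samples of bEnd.3, an immortalised mouse brain endothelial cell line that the labels give as wild type (WT). In 5 samples the cells had received saline for 16 h (replicates 1 to 5), and in 5 they had received 5 nM StcE for 16 h (replicates 1, 2, 3, 5 and 6). StcE is a bacterial enzyme, a mucinase, that cleaves the densely glycosylated mucin-type proteins of the cell surface, and the comparison asks how the transcriptome of these cells differs once that layer has been cut. Every sample thus came from 1 immortalised line grown in DMEM with 10% FBS, no sample had received an inactive enzyme, and the labels do not say whether the replicates of a group were separate cultures, so p-values measure the spread between these samples only.

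Each integrin is a pair of an alpha and a beta chain, and the pair decides the ligand. Fibronectin, a large secreted glycoprotein, is bound through its RGD motif by the alpha5-beta1 integrin and by alphav paired with beta3 or beta5. The alpha1 and alpha2 chains join beta1 to form collagen receptors, the alpha3 and alpha6 chains join it to form laminin receptors, and beta1 is therefore the shared partner of most alpha chains. Bound integrins recruit talin, kindlin, vinculin, focal adhesion kinase and other cytoplasmic proteins, which link the matrix to the actin cytoskeleton.

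Sequencing depth, recovered from the deposited FPKM values (fragments per kilobase of a gene's exons, scaled to library size), ranged from 21859342 fragments in StcE replicate 1 to 33140289 in StcE replicate 5. Samples within a group differed beyond counting error (chi-square per degree of freedom 3.07 to 8.39), and none were duplicates. All 10 endothelial markers, among them Pecam1 and Cdh5, passed the filter, and their summed FPKM was 1775 to 1927 after saline and 1688 to 1786 after StcE, with 5 of the 10 lower and 0 higher (limma with Benjamini-Hochberg adjustment, threshold 0.05; 7 lower and 0 higher at an unadjusted p under 0.05; 3 lower without any 1 sample other than saline replicate 5, which gave 4, or StcE replicate 2, which gave 5). Over all genes tested, the same limma test gave 6.41% lower and 5.52% higher. At an unadjusted p under 0.05 it gave 1643 lower and 1428 higher of 11062. The summed FPKM of 10 mural and fibroblast markers was 1.40 to 1.64 against 1.38 to 1.72, and that of 6 neural markers 0.117 to 0.172 against 0.0886 to 0.223. Leukocyte and platelet markers summed to 34.4 to 37.6 against 31.9 to 36.1, nearly all of it from Cd68, a lysosomal protein of macrophages (17.6 to 21.6 over all samples), and Pf4, a platelet chemokine (11.7 to 15.8), neither of which passed the threshold, whereas Ptprc, the pan-leukocyte phosphatase, gave at most 0.00198. Epithelial markers summed to 1.52 to 1.97 against 1.48 to 1.93. The part of the endothelial marker difference in the results below was not tested. In bulk samples, fewer cells of a type and less RNA per cell cannot be told apart.

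After StcE, 3 of the 10 genes were lower than after saline and 0 were higher, by limma on log2(FPKM + 1) with Benjamini-Hochberg adjustment over all genes tested. The 3 were Itga5, the alpha chain of the main fibronectin receptor (-9.93% in mean FPKM), Itgb5, a beta partner of alphav (-22.1%), and Itga1, a collagen receptor chain (-17.0%). Itga1 passed by a narrow margin (limma adjusted p = 0.0499) and no longer passed when any 1 sample was left out. Fn1 itself had a mean 15.3% below that of saline but missed the threshold by a narrow margin, and the other 6 genes had means between 5.87% below and 5.41% above. At an unadjusted p under 0.05, 4 were lower and 0 higher, and voom on the recovered fragments likewise gave 4 lower, with Fn1 as the fourth, and 0 higher. Among all genes tested 11.9% passed the threshold, 6.41% lower and 5.52% higher. At an unadjusted p under 0.05 (limma), 1643 of the 11062 genes were lower and 1428 higher. Voom covered 10440 genes, of which 752 were lower and 746 higher past its adjusted threshold. The median log2 difference of the 10 was -0.03, with 5 of 10 below 0, beside a median of -0.00066 over all genes tested.

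**Figure D1:**
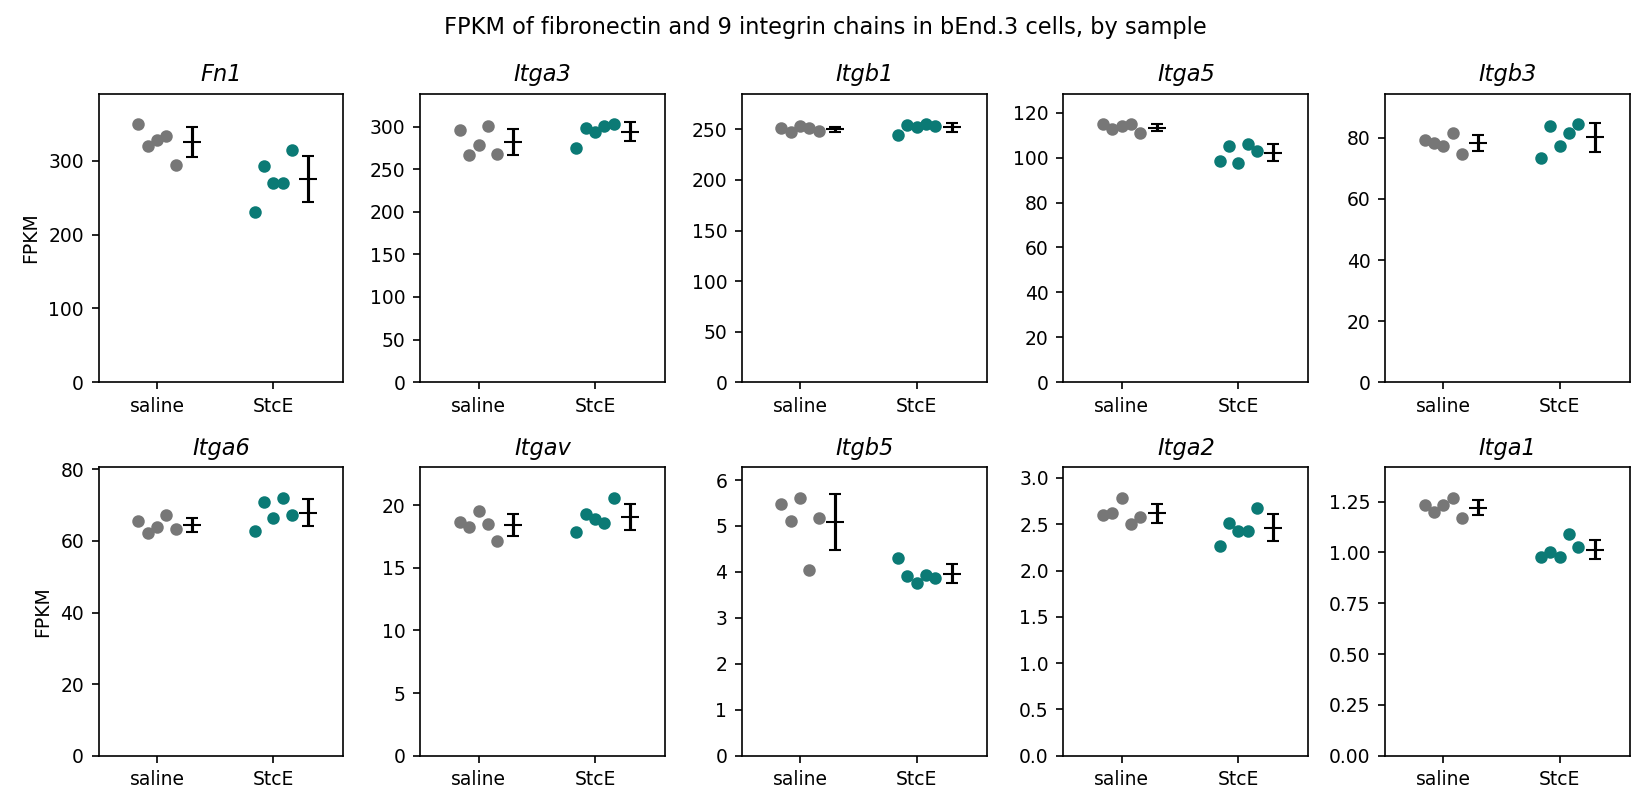
FPKM of the 10 genes (vertical axes, linear and starting at 0, with ranges that differ by panel) in all 10 samples, 5 per group. Points are samples in the order of their replicate numbers and bars are the mean with its SD (n = 5); the 2 groups do not overlap for Itga5 and Itga1, and for Itgb5 a single saline sample, at 4.05, lies among the StcE samples.

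The genes differed far more from each other than between conditions. FPKM here is a value per summed length of all annotated exons of a gene, and the order below rests on that length. The exons of Itga6 add up to 9025 bases and its longest transcript to 4310, against 4933 and 4415 for Itga5. Another choice of length could therefore change the order, Fn1 and Itga3 included. Fn1 (118th of all named genes by mean FPKM) was followed by Itga3, Itgb1, Itga5, Itgb3, Itga6, Itgav, Itgb5, Itga2 and Itga1 (10832nd). The sample ranges of neighbours in this order did not overlap, except for Fn1 and Itga3. Fn1 exceeded Itga3 in 5 of 5 saline samples (means 325.2 and 282.0) and in 1 of 5 StcE samples (means 275.6 and 294.2). Even the lowest genes were well counted: Itgb5 rested on 330 to 592 fragments per sample, Itga2 on 381 to 606 and Itga1 on 427 to 711, whereas Fn1 rested on 63361 to 124082.

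The promoters of the 3 genes that were lower, and of Itgb1, which was not, are shown so that the starts of the 2 kinds of gene can be set side by side. Each is a window of 300 bases in GRCm38.p6 from RefSeq, running from 250 bases before the gene's start to 50 after it, on the gene's own strand. Capitals mark the GC box GGGCGG, bound by Sp family factors, the ETS core CCGGAA, bound by factors that are abundant in endothelial cells, and the TEAD site CATTCC, through which YAP acts, each searched on both strands. The windows are chr15:103366742-103367041 on the minus strand for Itga5, chr16:33829415-33829714 on the plus strand for Itgb5, chr13:115101915-115102214 on the minus strand for Itga1 and chr8:128685404-128685703 on the plus strand for Itgb1.
Itga5: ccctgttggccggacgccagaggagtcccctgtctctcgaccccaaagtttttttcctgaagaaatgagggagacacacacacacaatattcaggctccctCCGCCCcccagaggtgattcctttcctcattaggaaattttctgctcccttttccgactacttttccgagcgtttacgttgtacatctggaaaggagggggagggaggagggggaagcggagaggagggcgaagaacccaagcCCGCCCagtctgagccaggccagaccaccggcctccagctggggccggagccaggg
Itgb5: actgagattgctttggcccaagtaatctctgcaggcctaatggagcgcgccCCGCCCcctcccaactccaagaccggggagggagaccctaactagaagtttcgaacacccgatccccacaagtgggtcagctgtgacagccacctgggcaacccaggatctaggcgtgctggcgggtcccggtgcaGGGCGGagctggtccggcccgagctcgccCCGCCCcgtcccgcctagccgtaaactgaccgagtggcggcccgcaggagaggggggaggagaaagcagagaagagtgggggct
Itga1: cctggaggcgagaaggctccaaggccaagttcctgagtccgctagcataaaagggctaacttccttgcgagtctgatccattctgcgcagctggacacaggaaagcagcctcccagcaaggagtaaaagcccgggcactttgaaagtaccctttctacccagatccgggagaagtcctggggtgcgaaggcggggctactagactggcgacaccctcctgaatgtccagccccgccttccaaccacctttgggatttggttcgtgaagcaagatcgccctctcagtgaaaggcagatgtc
Itgb1: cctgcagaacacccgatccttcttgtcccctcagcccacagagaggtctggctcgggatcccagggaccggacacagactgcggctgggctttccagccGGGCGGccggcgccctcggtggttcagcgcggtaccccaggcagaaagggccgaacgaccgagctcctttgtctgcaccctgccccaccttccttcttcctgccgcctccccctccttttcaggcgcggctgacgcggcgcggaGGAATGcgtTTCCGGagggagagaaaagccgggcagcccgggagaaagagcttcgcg

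The Itga5 window held 2 GC boxes and the Itgb5 window 3, whereas the Itga1 window held none of the 3 motifs, and that of Itgb1 held 1 of each. A window was given for 7 of the 10 genes, with 2 windows for Itga3 and none for Fn1, Itga6 or Itgb3. A GC box lay in 7 of these 8 windows, against 35.7% of the 32851 windows of all genes. The 8 windows held 52.3% to 67.3% G and C, beside a median of 52.7% over all windows. The part of this base content in the GC box count was not tested. The ETS core lay in 14.9% and the TEAD site in 14.7% of all windows. The ETS and TEAD letters overlap in GGAA on 1 strand, so that a run of bases can match both. These matches are descriptions of letters in a window.

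Fn1, on chromosome 1 (GRCm38 71585520 to 71653200, minus strand), encodes the ligand of the alpha5 and alphav integrins. Its FPKM was 349.1, 320.0, 328.4, 334.1 and 294.5 in saline replicates 1 to 5, and 230.5, 293.4, 269.9, 269.9 and 314.2 in StcE replicates 1, 2, 3, 5 and 6. The highest StcE sample, replicate 6, lay above the lowest saline sample, replicate 5, so the groups overlapped, although the other 4 StcE samples all lay below all 5 saline samples. The mean went from 325.2 ± 20.2 to 275.6 ± 31.3 (SD, n = 5 each), a log2 difference of -0.24 (SE 0.0726, 95% interval -0.40 to -0.085). The limma adjusted p was 0.0504, just outside the threshold of 0.05, and the two-sided exact permutation p was 0.0159, where 252 arrangements allow 0.00794 at the smallest. Without StcE replicate 6 the adjusted p was 0.0207 at a log2 difference of -0.29, and without saline replicate 5 it was 0.0373 at -0.28. Each of the other 8 omissions of 1 sample left Fn1 outside the threshold (adjusted p from 0.0505 to 0.111), the smallest log2 difference, -0.18, being that without StcE replicate 1. These gene-level values do not separate the splice forms of fibronectin.

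Itga5, on chromosome 15 (103344286 to 103366763, minus strand), encodes the alpha chain that with beta1 forms the classical fibronectin receptor. FPKM was 114.8, 112.6, 114.0, 114.8 and 110.8 in the 5 saline samples. After StcE it was 98.4, 105.3, 97.8, 106.1 and 103.1. The 2 groups stood fully apart, all StcE values being the lower, with the closest pair at 106.1 and 110.8, a gap narrower than the span of the StcE samples. The mean fell from 113.4 ± 1.69 to 102.1 ± 3.84 (SD, n = 5 each), a log2 difference of -0.15 (SE 0.0269, 95% interval -0.21 to -0.091; limma adjusted p = 0.00442; two-sided exact permutation p = 0.00794, the smallest possible). Leaving out any 1 sample kept the adjusted p between 0.00507 and 0.0146.

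Itgav, Itgb3 and Itgb5 encode the other RGD-binding chains. Itgb5, on chromosome 16 (33829665 to 33949338, plus strand), gave an FPKM of 5.48, 5.12, 5.61, 4.05 and 5.17 after saline, and 4.31, 3.91, 3.77, 3.94 and 3.87 after StcE. Saline replicate 4 stood well below the other 4 saline samples and below StcE replicate 1, so the groups overlapped through that sample, and all 5 StcE samples lay below the other 4. The mean fell from 5.08 ± 0.614 to 3.96 ± 0.205 (SD, n = 5 each), a log2 difference of FPKM + 1 of -0.29 (SE 0.0660, 95% interval -0.43 to -0.15; limma adjusted p = 0.0169; exact permutation p = 0.0159). At this level the added 1 shrinks the difference, and the log2 ratio of the means without it was -0.36. Without saline replicate 4 the adjusted p was 0.00053, and over the other 9 omissions of 1 sample it was 0.0203 to 0.0456.

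Itgb3, on chromosome 11 (104608000 to 104670476, plus strand), which encodes another partner of alphav, ranged from 74.6 to 81.7 after saline and from 73.4 to 84.4 after StcE. Its log2 difference was 0.03 (95% interval -0.052 to 0.12; limma adjusted p = 0.621). Itgav, on chromosome 2 (83724397 to 83806916, plus strand), ranged from 17.1 to 19.6 and from 17.8 to 20.6, with a log2 difference of 0.05 (95% interval -0.044 to 0.13; limma adjusted p = 0.515). For both genes the sample ranges of the groups overlapped over most of their width, and the intervals leave room for a change of either sign up to the bounds given. Itgb3 and Itgb5, which encode 2 of the beta partners of alphav, thus gave differences of 0.03 and -0.29. Only the second passed the test, and the difference between them was not tested. Overlap with the opposite-strand gene Gm13684 covered 5.90% of the exon length of Itgav, and 10.5% of the Itgb5 transcript had a near-identical copy in Gm38317.

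Of the collagen receptor chains, Itga1 on chromosome 13 (114953096 to 115101964, minus strand) was the least expressed of the 10 genes. Its FPKM was 1.24, 1.20, 1.23, 1.27 and 1.17 after saline, and 0.98, 1.00, 0.98, 1.09 and 1.03 after StcE. The groups did not overlap, the highest StcE sample lying below the lowest saline sample by less than the width of either group. The mean fell from 1.22 ± 0.0373 to 1.01 ± 0.0476 (SD, n = 5 each), a log2 difference of -0.14 on the FPKM + 1 scale (SE 0.0420, 95% interval -0.23 to -0.049) and a log2 ratio of means of -0.27 without the added 1. The limma adjusted p was 0.0499, just inside the threshold, and it ranged from 0.0615 to 0.109 when any 1 of the 10 samples was left out. The two-sided exact permutation p was 0.00794, the smallest possible. Of 22 alternative fits, Itga1 missed the threshold in 18 and passed in 4, voom among them (voom adjusted p = 0.00124). The same-strand gene Gm49395 overlapped 685 bases of its exons. The near-identical match to Gm49395 was also 685 bases long, 6.25% of the Itga1 transcript.

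Itga2, its neighbour on chromosome 13 (114833081 to 114932100, minus strand) and the other collagen-binding alpha chain, had an FPKM of 2.51 to 2.78 after saline and 2.27 to 2.68 after StcE. The groups overlapped, with a log2 difference of -0.06 (95% interval -0.15 to 0.025; limma adjusted p = 0.339). Without overlap between groups, and lower after StcE, were thus Itga5 and Itga1, which is 2 of the 10 genes, beside 5.8% of all genes tested, and 0 of the 10 were higher without overlap, beside 4.85%.

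The laminin receptor chains were not past the threshold. Itga3, on chromosome 11 (95044474 to 95076801, minus strand), gave 296.0, 266.5, 278.6, 300.9 and 268.2 after saline and 275.4, 298.4, 294.1, 300.6 and 302.6 after StcE. The StcE samples other than replicate 1 lay between 294.1 and 302.6, a band that 2 of the saline samples also reached, so that the groups overlapped. The log2 difference was 0.06 (95% interval -0.025 to 0.15; limma adjusted p = 0.341). Itga6, on chromosome 2 (71745616 to 71858416, plus strand), whose product pairs with beta1 or beta4, ranged from 62.1 to 67.2 and from 62.9 to 72.0, a log2 difference of 0.07 (95% interval -0.0073 to 0.15; limma adjusted p = 0.222). A copy in Gm29397 covered 7.56% of its transcript.

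Itgb1, on chromosome 8 (128685654 to 128733200, plus strand), the partner of most of these alpha chains, was the steadiest of the 10. FPKM was 251.1, 247.2, 253.3, 251.7 and 248.4 in the saline samples. In the StcE samples it was 244.7, 254.5, 252.3, 254.9 and 253.4. All 10 values lay within a band from 244.7 to 255.0, in which StcE replicate 1 was the lowest. The means were 250.3 ± 2.48 and 252.0 ± 4.18 (SD, n = 5 each), with a log2 difference of 0.0094 (95% interval -0.033 to 0.051; limma adjusted p = 0.793). This was the narrowest interval of the 10.

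**Figure D2:**
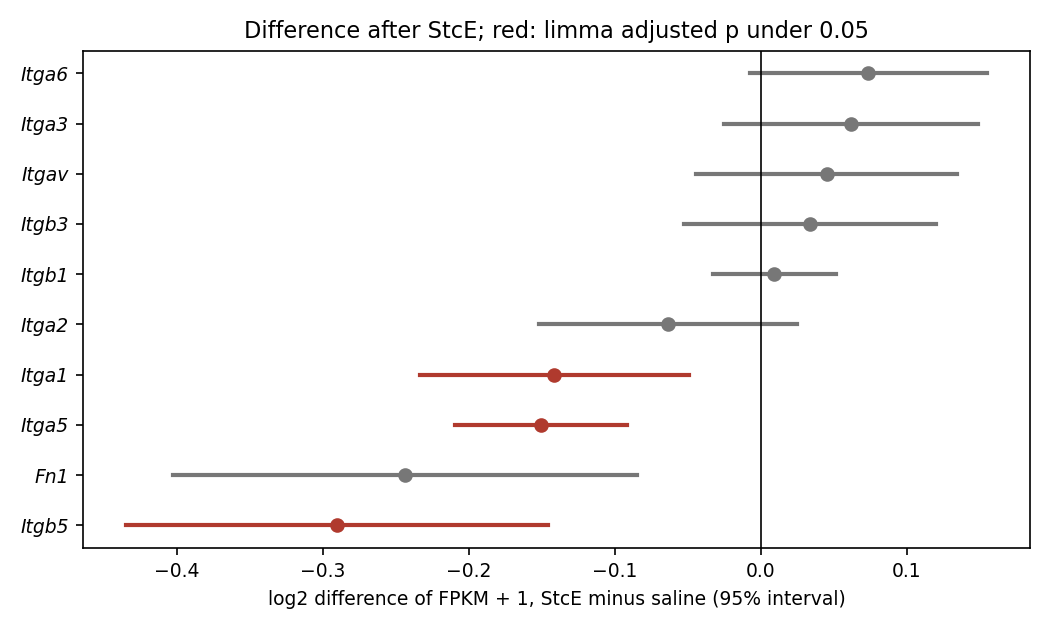
Log2 difference of FPKM + 1 (StcE minus saline, horizontal axis) for each of the 10 genes, with its 95% interval from limma; the vertical line is no difference. The 3 genes in red (Itgb5, Itga5 and Itga1) passed the adjusted threshold, whereas Fn1, in grey, had an interval below 0 and an adjusted p of 0.0504.

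Because Itga5 was lower and Itgb1 and Itga3 were not, the proportions of the chosen chains among themselves were also described, with no test. Among the 6 alpha chains, Itga5 made up 23.5% ± 0.658 of the summed FPKM after saline and 21.0% ± 0.448 after StcE (SD, n = 5 each), with sample ranges of 22.7% to 24.3% and 20.4% to 21.5%. Itga3 went from 58.5% ± 0.914 to 60.4% ± 0.547, and Itga6 from 13.4% to 14.0%. The sum itself was 482.1 ± 19.5 and 486.8 ± 18.1. Thus the summed FPKM of these 6 chains was alike in both groups, with a smaller portion from Itga5, while Itgav made up 3.82% and 3.91%. Itga4, another chain that binds fibronectin, was not among the 6 (means 13.3 and 13.9).

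Among the 3 beta chains, Itgb1 made up 75.03% and 74.98%, Itgb3 23.4% and 23.8%, and Itgb5 1.52% ± 0.188 and 1.18% ± 0.0879. Itgb4 was not among the 3, with means of 24.8 after saline and 20.02 after StcE. For the subunits of the fibronectin receptor, the FPKM ratio of Itga5 to Itgb1 was 0.446 to 0.457 across saline samples and 0.388 to 0.416 across StcE samples. In contrast, the ratio of Fn1 to Itga5, ligand to receptor chain, was 2.66 to 3.04 and 2.34 to 3.05, ranges that overlapped widely. These shares count fragments per summed exon length of a gene, not receptors at the cell surface, and they depend on the length used.

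**Figure D3:**
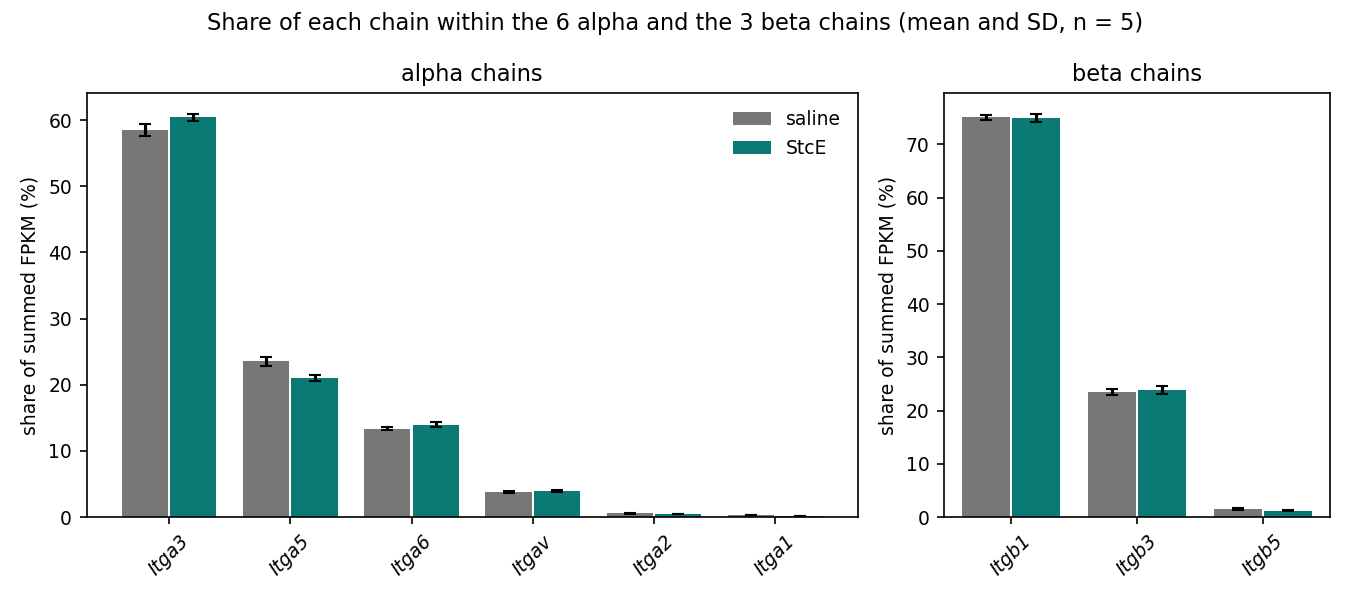
Share of each chain in the summed FPKM of the 6 alpha chains (left) and the 3 beta chains (right), in percent, as mean with SD over 5 saline (grey) and 5 StcE (green) samples. Itga3 and Itgb1 are the tallest bars of their panels, and the Itga5 bar is 23.5% after saline and 21.0% after StcE.

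Samples of a group also differed from each other. StcE replicate 1 was the lowest of its group for 8 of the 10 genes, all but Itga5 and Itgb5. How often that sample was the lowest over all genes tested was not counted. StcE replicate 1 had the fewest fragments (21859342), and saline replicate 4 had nearly as few (21918326). Saline replicate 4 was the highest of its group for 5 genes and the lowest for Itgb5 and Itga2, and StcE replicate 6 was the highest for 5. With each sample taken as its deviation from its group's mean, the pair with the highest Pearson's r over 10 samples was Fn1 and Itgb3 (r = 0.897, Spearman's rho = 0.806), followed by Fn1 and Itgav (r = 0.858, rho = 0.903) and by Itga5 and Itga6 (r = 0.850, rho = 0.939). The order by rho differed, with Itga5 and Itga6 first. Itgb5 and Itga3 had the lowest r (-0.526, rho = -0.552). These correlations describe 10 libraries in which each library's depth and makeup are shared by all genes.

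Across all genes tested, the deviations of Fn1 were most like those of Bmpr2, a receptor for bone morphogenetic proteins (r = 0.986, rho = 0.976 over 10 samples), Wwc2 (r = 0.983) and Ubqln2 (r = 0.973). Bmpr2 fell from a mean of 8.51 to 7.23 after StcE (log2 difference -0.21, limma adjusted p = 0.0367), and Wwc2 and Ubqln2 had adjusted p-values of 0.242 and 0.176. By r with Fn1, Itgb3 stood only 98th and Itgav 197th among all genes tested. The genes most like Itgb1 were Gdap2 (r = 0.946), Usp25, a deubiquitinase (r = 0.939), and Ppp2r5e, a regulatory subunit of protein phosphatase 2A (r = 0.932).

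**Figure D4:**
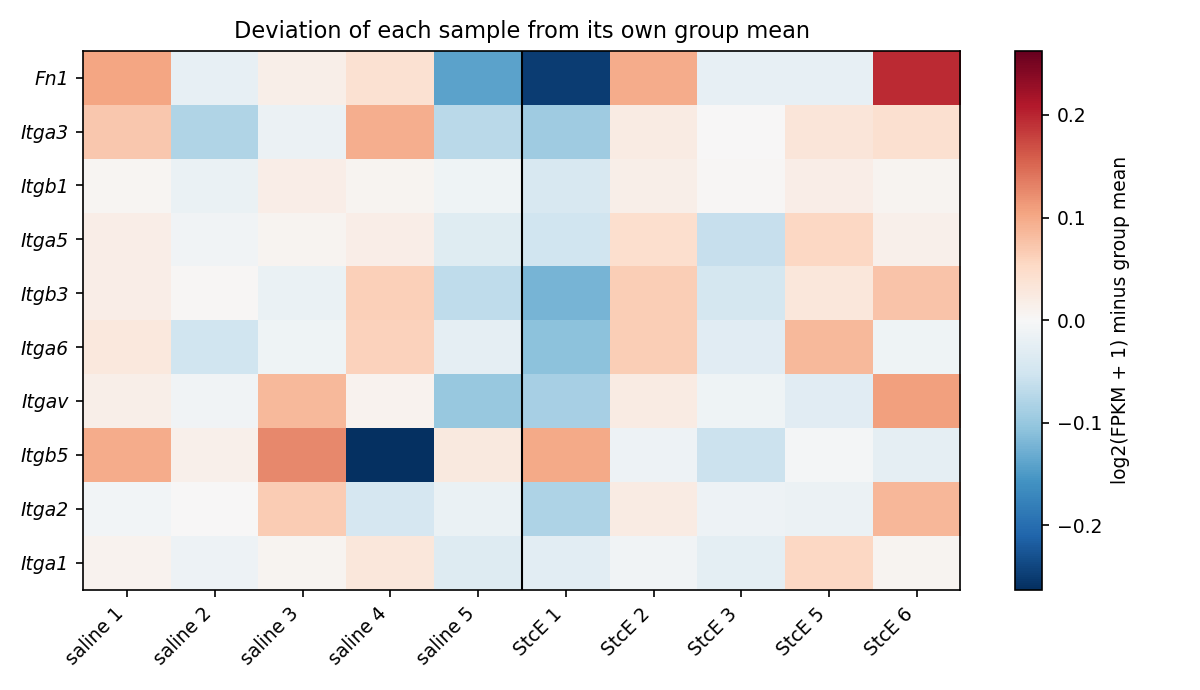
Deviation of each sample (columns) from the mean of its own group in log2(FPKM + 1), for the 10 genes (rows); red is above and blue below the group mean, and the black line parts saline from StcE. StcE replicate 1 is blue in every row but that of Itgb5, and the darkest saline cell is Itgb5 in replicate 4.

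Counts in the lists that follow are to be read beside the 6.41% lower and 5.52% higher among all genes tested. At an unadjusted p under 0.05 (limma), the numbers to set beside them are 1643 lower and 1428 higher of 11062 genes. For voom they are 752 lower and 746 higher of 10440 genes, which leave out some genes of the lists. The lists were written with earlier results of these data known. The rest of the integrin family was sparse in these cells. Of 17 other chains, 16 were in the table, 13 of them below 1 FPKM in every sample, and 2 passed the filter. Itgb4, which pairs with alpha6 to bind laminin at hemidesmosome-like contacts, fell from 24.8 ± 1.30 to 20.02 ± 1.16 (SD, n = 5 each), a log2 difference of -0.30 (limma adjusted p = 0.00167). Neither of the 2 was higher by limma, by voom or at an unadjusted p under 0.05. Itga4, an alpha chain that binds fibronectin and VCAM-1, had means of 13.3 and 13.9 (log2 difference 0.05, adjusted p = 0.521). Itgb8, another beta chain known to pair with alphav in brain, had no row that matched its name and was not analysed here.

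Of 18 matrix ligands tested, 4 were lower (22.2%) and 1 higher (5.56%), with a median log2 difference of -0.05. Col4a1 and Col4a2, the chains of basement membrane collagen IV, fell from 537.6 to 468.9 (-0.20, limma adjusted p = 0.0307) and from 422.5 to 363.5 (-0.22, adjusted p = 0.0326). Spp1, which encodes osteopontin, an RGD protein bound by alphav integrins, rose from 12.6 ± 2.28 to 18.1 ± 2.13 (0.50, adjusted p = 0.0127). The same-strand gene Gm42793 overlapped 18.75% of the exon length of Spp1. Mfge8 and Lamb2 were the other 2 that fell. Both collagen genes missed the threshold without saline replicate 1, 3 or 4 or StcE replicate 1 or 3, and Col4a2 also without saline replicate 2 (adjusted p up to 0.0790 for Col4a1 and 0.0809 for Col4a2). The count of 4 was 0 when saline replicate 1, 3 or 4 or StcE replicate 3 was left out.

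Among 7 tested genes of a broad list drawn up for fibronectin matrix assembly, 3 were lower (42.9%) and 1 higher (14.3%). A role of Flrt2, Mmrn2 or Ccbe1 in that matrix was not tested. Tgm2, the transglutaminase that cross-links fibronectin and binds it beside integrins, fell from 25.6 ± 0.692 to 20.3 ± 0.426 (SD, n = 5 each, log2 difference -0.32, limma adjusted p = 1.1e-05), and its groups stood apart with no overlap. The opposite-strand genes Gm20412 and Rprd1b overlapped 21.8% of the exon length of Tgm2, and their part in the values was not tested. Flrt2, a fibronectin leucine-rich transmembrane protein, fell from 6.67 to 5.15 (-0.32, adjusted p = 0.00399), and Mmrn2, an endothelial matrix glycoprotein, also fell. Ccbe1, a secreted protein of lymphangiogenesis with collagen and EGF-like domains, rose from 2.60 to 3.77 (0.41, adjusted p = 0.000289). The median of the 7 was -0.11.

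Of 16 tested genes that switch integrins on or off, talins and kindlins among them, 0 were lower and 1 was higher by limma (3 and 2 at an unadjusted p under 0.05; 1 and 1 by voom), and the 1 is 6.25% of the list, beside 5.52% over all genes. Without StcE replicate 2 the higher count was 2, and without saline replicate 5 the lower count was 1. The 1 was Rap1b, a small GTPase that acts upstream of talin, which rose from 145.0 to 168.9 (0.22, adjusted p = 0.000268). The list's median was -0.04.

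Of 29 tested focal adhesion adaptors and kinases, the longest of the lists, 8 were lower (27.6%, beside 6.41% over all genes) and 0 higher by limma (11 and 1 at an unadjusted p under 0.05), with a median of -0.06. Nedd9, a scaffold of the Cas family, fell from 11.5 to 8.96 (-0.32, adjusted p = 0.000131), and Vcl, vinculin, fell from 30.7 to 27.3 (-0.17, adjusted p = 0.0219). Overlap with the opposite-strand gene Ap3m1 covered 25.5% of the exon length of Vcl, and its part in the values was not tested. Rsu1, a partner of the ILK-PINCH-parvin complex, fell from 13.3 to 11.96 (-0.14, adjusted p = 0.00614). Actn4, Bcar1, Zyx, Ptk2, which encodes focal adhesion kinase, and Tgfb1i1 also fell. Voom likewise gave 8 lower and 0 higher. Vcl missed the threshold without saline replicate 1, saline replicate 4 or StcE replicate 3 (adjusted p up to 0.0572). The count of 8 depended on single libraries, since it was 2 without saline replicate 1 and 2 without StcE replicate 3, and between 2 and 7 over all 10 such omissions.

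Of 19 tested integrin partners and trafficking genes, 1 was lower and 1 higher (5.26% each, both below the shares over all genes), with a median of -0.0019. Plaur, the urokinase receptor, which binds integrins side by side in the membrane, rose from 93.0 to 115.9 (0.32, limma adjusted p = 9.8e-06), and Cd82, a tetraspanin, fell from 8.001 to 6.97 (-0.18, adjusted p = 0.0373). Cd82 missed the threshold without saline replicate 1, 2 or 3 or StcE replicate 3 or 5 (adjusted p up to 0.0832). Among 18 tested genes of actin and of SRF and YAP signalling, 2 were lower (11.1%) and 1 higher (5.56%, beside 5.52% over all genes), with a median of 0.0014. The 2 became 0 without StcE replicate 3 and 1 without saline replicate 1, 2 or 3 or StcE replicate 1. Mkl2, an actin-regulated SRF cofactor also known as Mrtfb, fell from 7.94 to 6.39 (-0.28, adjusted p = 0.0201), and Amotl2, a junctional regulator of YAP, fell from 48.6 to 44.0 (-0.14, adjusted p = 0.0355). Ankrd1, a YAP target, rose from 43.6 to 50.2 (0.21, adjusted p = 0.0484), a call that was kept, of the 10 omissions of 1 sample, only without saline replicate 1 or 3 (adjusted p up to 0.114). Amotl2 missed the threshold without saline replicate 1, 2 or 3 or StcE replicate 1 or 3 (adjusted p up to 0.0838), and Mkl2 without StcE replicate 3 (0.0509).

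**Figure D5:**
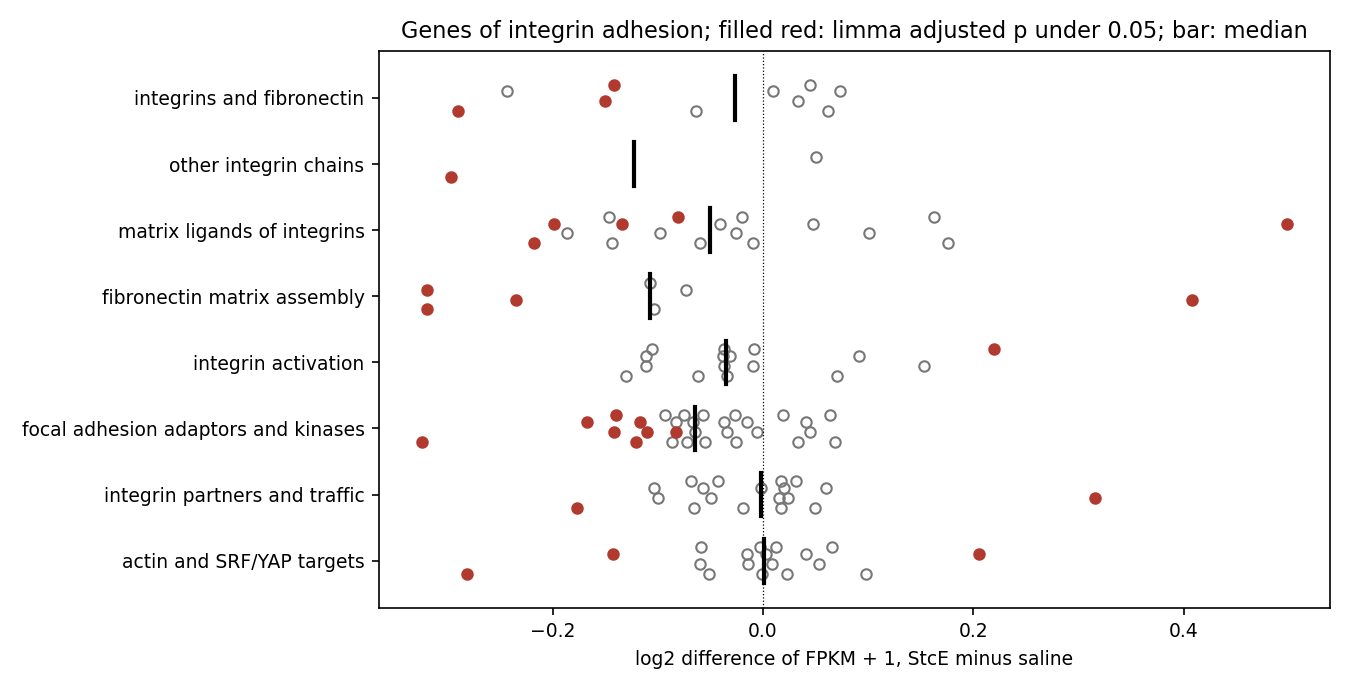
Log2 difference of FPKM + 1 (StcE minus saline, horizontal axis) of the tested genes of each list (rows); filled red points passed the limma adjusted threshold, open points did not, and the vertical bar is the list's median. Medians lie between -0.12 (other integrin chains, 2 genes) and 0.0014 (actin and SRF/YAP targets), and the list of focal adhesion adaptors and kinases has 8 red points, all below 0.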

How the data were processed

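Poly(A) RNA of 10 bEnd.3 samples was sequenced from directional libraries. Per the labels and the study's methods, the authors aligned trimmed paired reads to mm10 (GRCm38) with HISAT2 2.0.5, counted them per gene with featureCounts 1.5.0-p3 and deposited FPKM values for the 10 samples; the submitters' processing notes also name DESeq2 1.32.0. The annotation release and the strand setting are not given in the sources used here. Of the rows, 22874 held no gene name and were left out, and 12 names stood on more than 1 row. Without raw counts, differences were tested with limma 3.58.1 in R 4.3.3 on log2(FPKM + 1), with a variance trend, for the 11062 genes whose mean FPKM reached 1, and p-values were adjusted by the Benjamini-Hochberg method with a threshold of 0.05; fold changes of low genes are understated on this scale. Single genes were also compared by a two-sided exact permutation test over the 10 samples. With the exon lengths of the GENCODE annotation of GRCm38, 96.6% of values above 0 came out as whole fragments within 0.05, which gave the depths; 3 fragments on 1 kb correspond to an FPKM of 0.0857 to 0.131, and such limits cover counting error only. Near-identical copies were found with BLAST 2.17.0 (at least 95% identity over at least 150 bases). Promoters were read from RefSeq windows with Python 3.11.15. The members and gene lists were chosen with earlier results of these data known. Named were all 10 members, the 3 largest differences past the threshold in each list (where fewer passed, the most highly expressed others up to 2 in all), and the 3 genes most like Fn1 and Itgb1; further genes named only as having fallen were named after their values were seen. A gene that this rule names is not reported here. Alternatives changed the pseudocount, filter, scaling, variance model, weights, replicate block and samples; scaling by total fragments and voom on recovered fragments were chosen after seeing the data.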

Additional observations from a re-analysis of the deposited data

Results flagged for a closer look

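The FPKM of Itgb1 in StcE replicate 1 was 244.7, whereas the other 4 StcE samples lay between 252.4 and 255.0, and the gap to the nearest was 0.745 of the group's range, above the critical value for 5 samples. It was the only such sample in 56 groups examined, where chance alone gives about 1 in 20, or 2.8.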

How the results depend on the processing

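No member's difference reversed in 220 refits under 22 alternatives, and 194 of the refits kept their side of the threshold. For 18 other genes taken by the naming rule, 331 of 393 refits did so, 62 no longer passed and 0 reversed. With no filter, 801 genes passed in place of 1320 (409 lower, 392 higher), with 1 member and 12 list genes in place of 24. With the replicate block 349 passed (162 lower, 187 higher), with 1 member and 8 list genes; the same 8 samples without it gave 452 lower. Leaving out 1 sample gave 793 to 1255 genes (409 to 667 lower, 384 to 588 higher), 2 to 3 members and 10 to 23 list genes; the lowest gene count was without StcE replicate 3, and 838 passed without saline replicate 1. Itga1 no longer passed with a pseudocount of 0.1 (-0.25, limma adjusted p = 0.0598), no filter (-0.14, 0.0914), upper quartile (-0.14, 0.0530), median ratio (-0.14, 0.0506) or total fragment scaling (-0.14, 0.0537), array weights (-0.14, 0.0527), the replicate block (-0.14, 0.262), the same 8 samples without it (-0.14, 0.135), or without any 1 sample (-0.16 to -0.13). With the replicate block Itga5 also missed it (-0.15, 0.0926), and so did Itgb5 with no filter (-0.29, 0.0596). Fn1 passed with array weights (-0.25, 0.0273), with the same 8 samples and no block (-0.28, 0.0453), with total fragment scaling (-0.23, 0.0492) and with voom (-0.24, 0.0113), and ranged from -0.29 to -0.18 when 1 sample was left out. Fewer samples or more genes tested enter several of these fits; otherwise the cause was not tested. Samples sharing a replicate number did not deviate together: their 4 same-number correlations of deviations were -0.0966 to 0.0538, and 0 of 4 saline samples correlated best with their own number.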
